A study of Mus musculus with 4 samples.

Results

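The Cdc14 and Cdc25 families are protein phosphatases that act on the cyclin-dependent kinases (CDKs) or on their substrates, and 5 mouse genes of them, Cdc14a, Cdc14b, Cdc25a, Cdc25b and Cdc25c, were examined in embryonic stem (ES) cells depleted of the zinc finger protein Zfp322a. On the array used, 11 of 45037 probe sets carried 1 of these symbols as their only gene symbol, and they stood for 5 of 18193 genes. The genes were chosen by the difference between the same arrays that are described here, above all by that of Cdc14a, so the values of the 5 genes are given as a description. No p-value is drawn for them. How many lay past the threshold of the fit over all probe sets is given as a tally, and again under other settings, and nothing is read from it. RNA came from E14 cells, a line of mouse ES (mES) cells, grown with serum and the cytokine LIF. The control RNAi cells were mock knock-down cells that had received the pSuper.puro vector, and the Zfp322a RNAi cells had received a plasmid of that kind expressing a short hairpin RNA against Zfp322a. Both groups were transfected with a lipid reagent and selected with puromycin for 3 days according to the sample descriptions, while the study's account of the array samples gives a longer selection. Each group had 2 arrays, and nothing in the descriptions says whether the 2 came from separate cultures, so the spread between them may be technical. A hairpin lowers its target without deleting it, and whether both knock-down arrays used the same hairpin was not given in the sources used here.

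CDKs are held inactive when kinases of the Wee1 family phosphorylate them, and the CDC25 phosphatases remove these phosphates. CDC25A acts at entry into S phase and into mitosis, while CDC25B and CDC25C are known mainly for the step from G2 into mitosis. CDC14 acts at the other end of mitosis: in budding yeast it reverses CDK phosphorylation and so allows exit from mitosis, whereas its mammalian relatives CDC14A and CDC14B are linked to centrosomes, the nucleolus and the response to DNA damage. mES cells divide fast and have a short G1 phase.

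The sequences before the annotated starts show how the loci that differed most are laid out. RefSeq start sites of 4 of the 5 genes were used (build GRCm38.p6), with 3 for Cdc14a and 2 for Cdc14b. The transcripts a probe set reads may therefore begin at different places. The sequence before the start of Cdc25c was not analysed here. The 250 bases before each start of Cdc14a and Cdc14b and before the start of Cdc25a are printed here 5′ to 3′ on the gene's own strand, since these 3 genes carried the probe sets with the widest differences. Capitals mark matches on either strand to 6 motifs: an E2F-type site (TTTGGCGC or TTTCGCGC), a cyclic AMP response element (CRE, TGACGTCA), a CCAAT box (CCAAT), a GC box (GGGCGG), the core of the cell-cycle homology region (CHR-type, TTTGAA) and a heat shock element core (GAANNTTC). The Cdc14a windows lie on the minus strand at chr3:116428742-116428991, chr3:116424073-116424322 and chr3:116354245-116354494, the Cdc14b windows on the minus strand at chr13:64274989-64275238 and chr13:64248539-64248788, and the Cdc25a window on the plus strand at chr9:109875329-109875578.
Cdc14a, start 1: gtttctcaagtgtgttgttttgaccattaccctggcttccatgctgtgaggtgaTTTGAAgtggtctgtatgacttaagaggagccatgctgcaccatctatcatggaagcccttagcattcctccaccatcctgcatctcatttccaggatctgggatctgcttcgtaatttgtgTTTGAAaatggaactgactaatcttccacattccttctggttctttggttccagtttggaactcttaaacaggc
Cdc14a, start 2: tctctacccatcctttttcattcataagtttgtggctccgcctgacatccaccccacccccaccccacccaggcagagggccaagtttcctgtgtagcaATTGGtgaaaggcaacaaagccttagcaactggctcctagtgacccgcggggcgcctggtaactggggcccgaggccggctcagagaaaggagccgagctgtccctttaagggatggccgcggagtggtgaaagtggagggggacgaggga
Cdc14a, start 3: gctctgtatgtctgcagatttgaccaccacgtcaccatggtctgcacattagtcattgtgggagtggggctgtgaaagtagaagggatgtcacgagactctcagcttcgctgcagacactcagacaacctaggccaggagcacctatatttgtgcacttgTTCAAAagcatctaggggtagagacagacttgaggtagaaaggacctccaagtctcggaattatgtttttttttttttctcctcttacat
Cdc14b, start 1: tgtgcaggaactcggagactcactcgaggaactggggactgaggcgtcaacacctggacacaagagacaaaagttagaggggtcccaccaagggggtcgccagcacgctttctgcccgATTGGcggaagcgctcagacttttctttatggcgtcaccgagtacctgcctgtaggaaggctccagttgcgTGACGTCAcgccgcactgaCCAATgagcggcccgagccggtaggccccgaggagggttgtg
Cdc14b, start 2: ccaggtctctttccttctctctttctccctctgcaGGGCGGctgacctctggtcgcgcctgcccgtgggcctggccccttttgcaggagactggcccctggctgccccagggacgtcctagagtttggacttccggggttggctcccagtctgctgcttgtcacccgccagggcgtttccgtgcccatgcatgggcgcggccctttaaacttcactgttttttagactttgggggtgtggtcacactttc
Cdc25a: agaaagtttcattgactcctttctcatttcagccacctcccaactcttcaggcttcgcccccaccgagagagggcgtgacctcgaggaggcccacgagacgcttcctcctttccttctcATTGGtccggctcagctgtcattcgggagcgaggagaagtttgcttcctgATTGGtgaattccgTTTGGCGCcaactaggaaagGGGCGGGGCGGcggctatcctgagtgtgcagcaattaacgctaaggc

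No motif was found in all 3 Cdc14a windows. The first held 2 TTTGAA matches and the third held 1 on the other strand, while the second, the richest in G and C of the 3 (59.6% against 44.4% and 46.4%), held 1 CCAAT box. Of 32841 windows of this length in the annotation, 16.0% held TTTGAA and 33.9% a CCAAT box. The first Cdc14b window held the CRE 61 to 54 bases before the start, between 2 CCAAT boxes, and 1.55% of all windows held that element. The second Cdc14b window held a single GC box, a match found in 32.7% of all windows. The Cdc25a window held TTTGGCGC 67 to 60 bases before the start, with 2 CCAAT boxes upstream and 2 overlapping GC boxes downstream of it, and 0.655% of all windows held either form of the E2F-type site. The Cdc25b window, which is not printed, held 1 CCAAT box and 4 GC boxes. The heat shock element core was in none of the 7 windows and in 6.7% of all windows. These matches describe letters in a window and say nothing of what binds there.

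The arrays gave 1 log2 value (RMA, robust multi-array average) per probe set, and a log2 change below is the mean of the 2 Zfp322a RNAi arrays minus the mean of the 2 control arrays. It is given ± the standard error that limma estimates with a spread shared over all probe sets, and "past the threshold" means a limma p under 0.05 after Benjamini-Hochberg adjustment over all 45037 probe sets. The array medians lay between 6.07 and 6.11. The knock-down was visible on both Zfp322a probe sets: 1439035_at read 8.75 and 8.84 in the control arrays and 7.53 and 7.13 after RNAi, and 1452374_at read 8.82 and 8.89 against 7.08 and 6.89 (to 36.2% and 27.4% of control, limma adjusted p 0.0022 and 0.00094). Of 10 mES cell markers, 10 of 10 read above the array median on every array (list medians from 12.5 to 12.6), 4 fell and 0 rose, against 11.5% of all genes lower and 12.2% higher by brightest probe set. The 4 were Esrrb, Tdgf1, Utf1 and Fut9, while Pou5f1 (−0.06 ± 0.08), Nanog (−0.03 ± 0.08), Sox2 (0.02 ± 0.10) and Zfp42 (0.06 ± 0.08) were not past the threshold. Of 12 fibroblast and feeder cell markers, 2 of 12 read above it (list medians from 5.07 to 5.31), 2 fell and 0 rose. The 2 that read above the array medians were also the 2 that fell. Thy1 read 7.12 and 7.42 in the control arrays (log2 change −0.56 ± 0.12). Pdgfrb read 7.37 and 7.28 there (−0.87 ± 0.08). Postn and Lum, among the dimmer markers of the list, read between 4.14 and 4.43 on the 4 arrays, a scale with no true zero. The cells were measured in bulk, so fewer cells of a kind and less RNA per cell cannot be told apart.

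Of the 5 genes, only Cdc14a had a probe set that was higher past the threshold (1436913_at), and 3 genes had 1 each that was lower (Cdc14b 1437070_at, Cdc25a 1445995_at and Cdc25c 1422252_a_at). That is 1 probe set higher, 3 lower and 7 not past the threshold of the 11. Over all probe sets 20.1% were past it, 10.6% higher and 9.47% lower. The median log2 change of the 11 was −0.20, against −0.03 over all probe sets. The 2 groups did not overlap in 8 of the 11, and in 57.5% of all probe sets. With each gene taken by its brightest probe set, 1 of 5 genes was higher and 1 was lower, against 23.7% of all genes past the threshold (12.2% higher and 11.5% lower). Nothing is read from these counts, since the genes were chosen on this contrast. Calls in this fit rest on all 4 arrays: leaving out any of them leaves a single array in its group and fewer residual degrees of freedom. Calls were then lost over the whole series, which says nothing of the 5 genes in particular. The values of the 4 member probe sets past the threshold kept their direction.

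**Figure D1:**
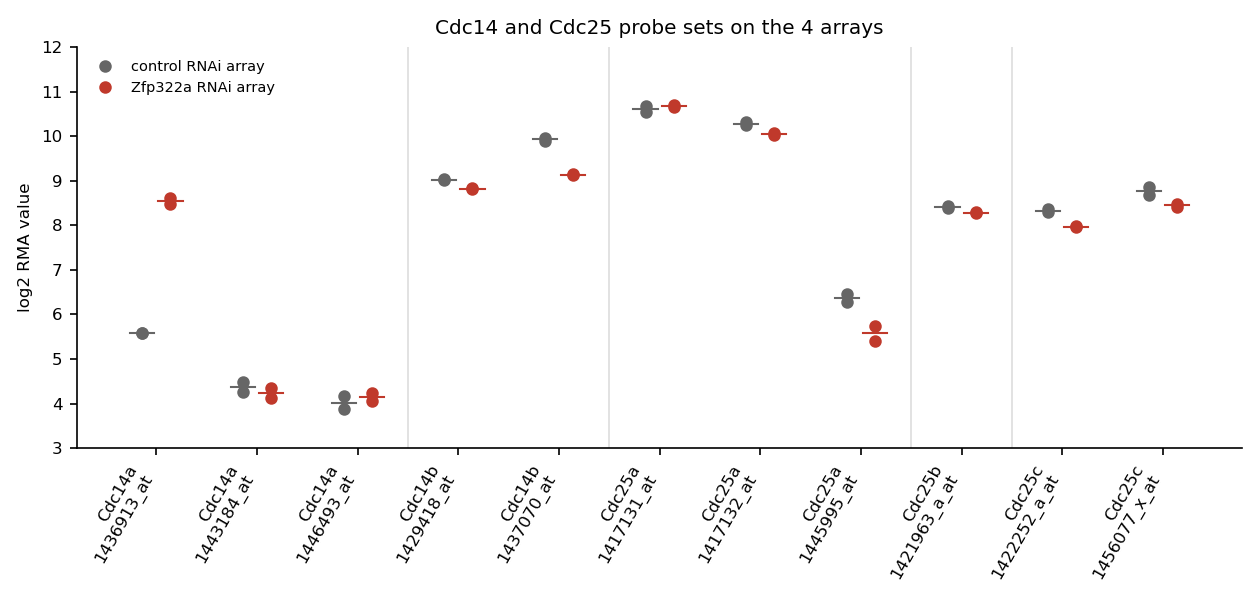
Log2 RMA value (vertical axis) of the 11 probe sets of the 5 genes (horizontal axis) on the 2 control RNAi arrays (grey) and the 2 Zfp322a RNAi arrays (red). Points are arrays and short lines are group means; Cdc14a 1436913_at goes from 5.59 to 8.62 and 8.47, while the other 10 probe sets stay within 1 log2 unit of their control means.

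Cdc14a was read by 3 probe sets, and they did not tell the same story. Probe set 1436913_at read 5.59 and 5.59 in the control arrays and 8.62 and 8.47 in the Zfp322a RNAi arrays. Both knock-down arrays lay far above both control arrays, and the log2 change was 2.96 ± 0.09 (95% confidence interval 2.75 to 3.16). Only 3 of the 45037 probe sets had a higher log2 change. In the control arrays its signal was brighter than that of 41.1% of probe sets, and after RNAi brighter than 79.3%, although brightness also depends on the probes themselves. The control signal lay below the array medians, near that of S100a4 from the fibroblast list (5.72 and 5.56). Postn (4.30 and 4.29) and Lum (4.30 and 4.26) of that list read lower. No detection call was used here, so whether the Cdc14a control signal stood above background was not tested. The difference is one of signals and not a measured fold in RNA.

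Probe set 1443184_at of Cdc14a read 4.49 and 4.27 in the control arrays and 4.35 and 4.13 after RNAi. Probe set 1446493_at read 3.87 and 4.17 in the control arrays and 4.07 and 4.24 after RNAi. On both, the groups overlapped, and the log2 changes were −0.14 ± 0.12 (−0.42 to 0.14) and 0.14 ± 0.12 (−0.17 to 0.44). Their control signals were brighter than only 20.0% and 13.9% of probe sets, and neither interval reached the change of 1436913_at. Averaged over the 3 probe sets, Cdc14a had a log2 change of 0.98 ± 0.06, a mean carried by 1 of the 3. Which transcripts or exons each of the 3 reads was not analysed here, and whether the low signal of the other 2 accounts for the disagreement was not tested.

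Cdc14b, the paralogue of Cdc14a, read lower. Its brighter probe set, 1437070_at, read 9.90 and 9.96 in the control arrays and 9.15 and 9.13 after RNAi, which left 57.8% of the control signal. The 2 arrays of each group lay close together, and the log2 change was −0.79 ± 0.08 (−0.98 to −0.60). The other probe set, 1429418_at, read 9.01 and 9.03 against 8.82 and 8.83. Its groups did not overlap either, and the log2 change was −0.20 ± 0.07 (−0.38 to −0.01). The 2 Cdc14 genes thus stood on opposite sides of 0 by their brightest probe sets, and each had at least 1 probe set that did not show a change of that size.

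Cdc25a, the CDC25 phosphatase of S phase entry and mitosis, had 3 probe sets. The 2 bright ones gave small differences: 1417131_at read 10.55 and 10.67 in the control arrays and 10.66 and 10.69 after RNAi, and 1417132_at read 10.24 and 10.31 against 10.03 and 10.06. The groups overlapped on the first (log2 change 0.07 ± 0.08, −0.14 to 0.27) and not on the second (−0.23 ± 0.08, −0.42 to −0.04). The dim 1445995_at read 6.27 and 6.47 in the control arrays and 5.75 and 5.40 after RNAi. Its log2 change was −0.80 ± 0.14 (−1.13 to −0.46), with the knock-down signals below the array medians and not shown to stand above background, and its 2 knock-down arrays lay farther apart than those of either bright probe set. The mean of the 3 gave −0.32 ± 0.08, on the other side of 0 from the brightest probe set.

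Cdc25b and Cdc25c, the phosphatases of the G2 to M step, read lower on each of their 3 probe sets, and their intervals overlapped. The single Cdc25b probe set, 1421963_a_at, read 8.38 and 8.43 in the control arrays and 8.27 and 8.30 after RNAi. Its groups did not overlap, and the log2 change was −0.12 ± 0.08 (−0.31 to 0.07). For Cdc25c, 1422252_a_at read 8.30 and 8.36 against 7.98 and 7.96, and 1456077_x_at read 8.68 and 8.87 against 8.47 and 8.42. On both, the 2 knock-down arrays lay below the 2 control arrays, at 77.9% and 79.6% of control. The log2 changes were −0.36 ± 0.08 (−0.55 to −0.17) and −0.33 ± 0.09 (−0.56 to −0.10), just inside and just outside the threshold of the tally. The ending of the second name marks probes that may also bind other transcripts, and the 2 probe sets nevertheless gave nearly the same change.

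**Figure D2:**
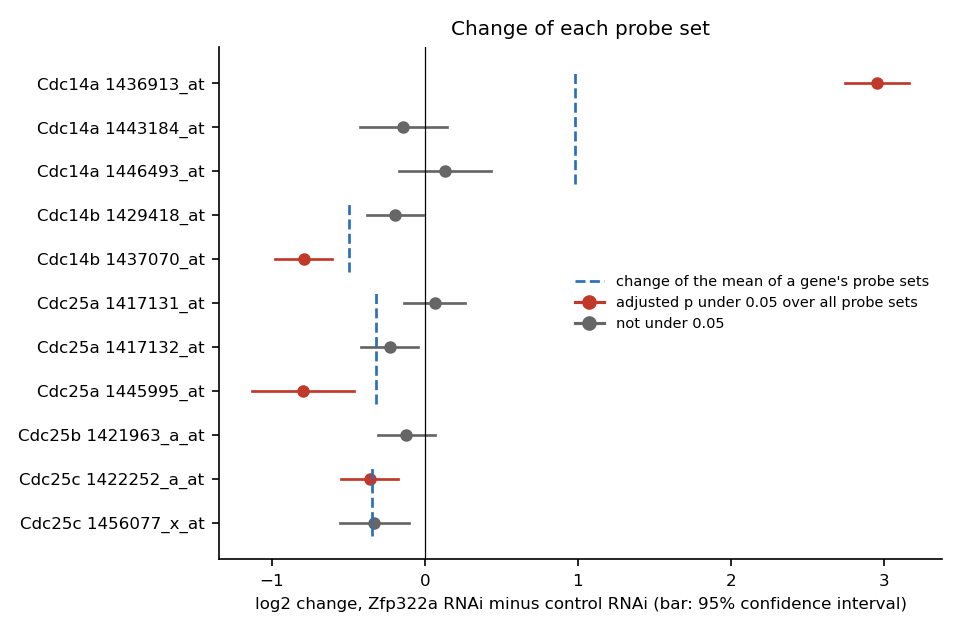
Log2 change (horizontal axis, Zfp322a RNAi minus control RNAi) of each of the 11 probe sets (vertical axis). Points are limma estimates, bars their 95% confidence intervals and red those with an adjusted p under 0.05; blue dashed lines give the change of the mean of a gene's probe sets. The Cdc14a bars lie near 3 and near 0, and the 2 Cdc25c bars nearly coincide.

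The disagreement between probe sets of 1 gene was measured as the highest minus the lowest log2 change among them. For Cdc14a it was 3.10, and 0 of the 9010 genes with several probe sets had a wider range. The next widest were P2rx7 with 2.46 and Ttn with 2.38, and the median over all these genes was 0.26. Cdc25a followed with 0.86, wider than 92.9% of genes, and Cdc14b with 0.60, wider than 83.4%. The 2 Cdc25c probe sets differed by 0.03, and 5.69% of genes had a narrower range. Among the 4695 genes with 2 probe sets, 92.1% had a narrower range than Cdc14b and 10.3% a narrower one than Cdc25c. Among the genes with 3, 92.6% had a narrower one than Cdc25a. Of the 2366 genes with 3 probe sets, 27.6% had exactly 1 past the threshold, as Cdc14a and Cdc25a did, while 53.3% had 0 and 4.73% had all 3. A gene with 1 of 3 probe sets past the threshold was therefore common on these arrays, whereas the width seen for Cdc14a was not matched by another gene. These shares describe the arrays, and the probe sets were not chosen independently of the change.

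**Figure D3:**
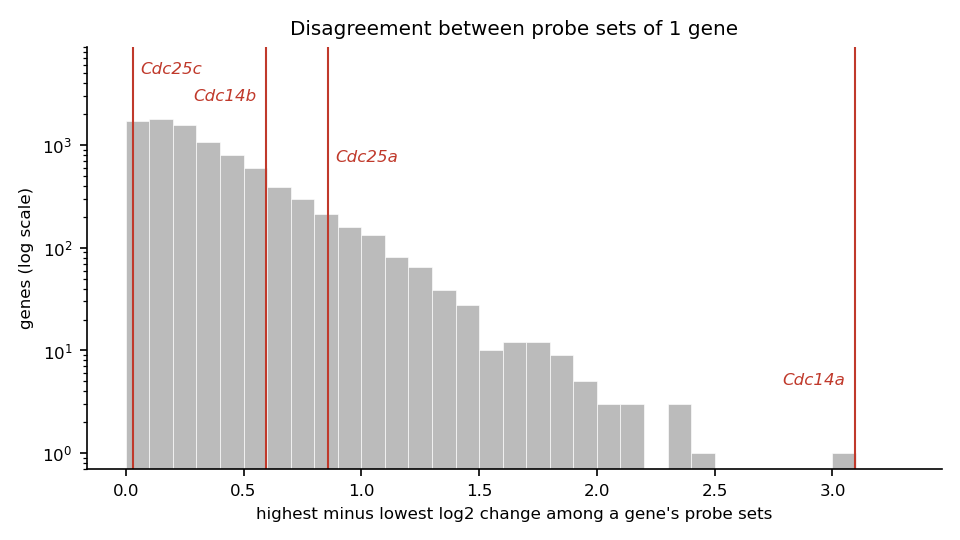
Number of genes (vertical axis, log scale) by the highest minus the lowest log2 change among a gene's probe sets (horizontal axis), for the 9010 genes with several probe sets. Red lines mark Cdc25c at 0.03, Cdc14b at 0.60, Cdc25a at 0.86 and Cdc14a at 3.10, alone at the right end.

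The profile of Cdc14a 1436913_at over the 4 arrays was set against every other named gene by Euclidean distance, with each array taken as its log2 value minus the control mean. The nearest 5 were Hspa1b (distance 0.19), Hspa1a (0.25), Id2 (0.32), P2rx7 (0.48) and Hmox1 (0.72). Each gene stood there for its nearest probe set alone, 1 of 3 for Hspa1b, Id2 and P2rx7. The P2rx7 probe set used rose by 2.64, while the log2 changes of its 3 probe sets spanned 2.46. The rise was thus not shared by all P2rx7 probe sets. The other Hspa1b and Id2 probe sets were not compared here. Hspa1a and Hspa1b encode inducible heat shock proteins, and they are near-identical copies whose signals the probes may not separate. Id2 encodes a protein that blocks helix-loop-helix transcription factors, P2rx7 an ATP-gated channel and Hmox1 the haem-degrading oxygenase. The Hspa1b probe set read 8.83 and 8.81 in the control arrays and 11.91 and 11.88 after RNAi. With 4 arrays in 2 groups this measure finds genes with a rise of the same size and little else.

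The nearest measured protein-coding genes in the RefSeq order were looked at for each locus, by brightest probe set. Other genes lying between were skipped. This step was chosen after the values of the 5 genes had been seen. The 4 neighbours of Cdc14a on chromosome 3 were not past the threshold: Extl2 had a log2 change of 0.26 ± 0.08, Vcam1 −0.01 ± 0.10, Rtca −0.09 ± 0.08 and Dbt 0.09 ± 0.08. On chromosome 13, 2 of the 4 neighbours of Cdc14b rose, where 12.2% of all genes did. Zfp367 rose by 0.60 ± 0.13 and Ctsl, a lysosomal protease, by 0.66 ± 0.07 (limma adjusted p 0.0268 and 0.0033), while Habp4 (0.35 ± 0.13) and Prxl2c (−0.08 ± 0.09) were not past the threshold. None of the 12 neighbours of the 3 Cdc25 genes was past it, with log2 changes between −0.21 for Map4 and 0.17 for Spef1.

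A list of CDK complexes, CDK inhibitors and Wee1-family kinases held 23 genes, of which 22 were measured. Of these, 5 rose and 2 fell, or 31.8% against 23.7% of all genes. The median log2 change was 0.02 (−0.04 over all genes), so that the list as a whole lay near 0. Wee1, the kinase that opposes CDC25, rose from 10.18 and 10.15 to 10.62 and 10.65, a log2 change of 0.47 ± 0.08 (limma adjusted p 0.0093). Its target Cdk1 rose by 0.33 ± 0.08 (0.0389), whereas Cdk2 (0.20 ± 0.08) and Pkmyt1, the other inhibitory kinase (−0.17 ± 0.11), were not past the threshold. Among the cyclins, Ccne2 rose by 1.16 ± 0.11, Ccnd2 by 1.04 ± 0.10 and Ccnd1 by 0.49 ± 0.08, and a second bright Ccnd1 probe set did not make that call. Ccnd3 (−0.70 ± 0.08) and Ccna1 (−0.33 ± 0.08) fell, Ccna1 not with the arrays centred or quantile-normalized (limma adjusted p 0.0611 and 0.0648). Ccnb1 was not analysed here.

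Of 28 measured genes that control CDC25 activity or turnover, 5 rose and 5 fell (35.7% against 23.7% of all genes, median −0.04). Gadd45a, a stress-induced growth arrest gene, rose by 1.23 ± 0.11, Plk3, a stress-responsive kinase, by 0.75 ± 0.08, and the checkpoint loader Rad17 by 0.49 ± 0.08. Chek1, the checkpoint kinase that phosphorylates CDC25 proteins, read 10.17 and 10.11 in the control arrays and 10.51 and 10.49 after RNAi and rose by 0.36 ± 0.08 (limma adjusted p 0.0229). Chek2 read 9.44 and 9.47 against 9.26 and 9.26, a log2 change of −0.20 ± 0.07 that was not past the threshold. Of the 7 genes of 14-3-3 proteins, which bind phosphorylated CDC25, 0 rose, 4 fell and 3 were not past the threshold by brightest probe set. Of all genes 11.5% were lower and 12.2% higher. Those that fell were Sfn (−0.63 ± 0.08), Ywhae (−0.43 ± 0.08), Ywhah (−0.40 ± 0.07) and Ywhag (−0.40 ± 0.09). Sfn read 6.05 and 5.98 against 5.45 and 5.33, below the array medians and not shown to stand above background. The others were Ywhab (−0.08), Ywhaq (−0.10) and Ywhaz (0.22). Of the 7 Ywhaz probe sets, 3 dimmer ones fell past the threshold, as did 1 further Ywhab probe set. No other of the 4 Ywhag probe sets was past it. This group was named here after its values were seen.

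The mitotic exit machinery, to which CDC14 belongs in yeast, had 2 of 36 genes that rose and 5 that fell (19.4% against 23.7% of all genes, median −0.02). Anapc2 (−0.81 ± 0.08), a core subunit of the anaphase-promoting complex (APC), and Anapc11 (−0.39 ± 0.08), its RING subunit, fell. Pttg1, the securin that guards sister chromatids, read 13.06 and 13.09 in the control arrays and 12.25 and 12.31 after RNAi and fell (−0.80 ± 0.08). Anapc10 (0.40 ± 0.09) and Cdc27 (0.34 ± 0.09), subunits of the same complex, rose, Cdc27 not after quantile normalization (limma adjusted p 0.0607). Fzr1, the APC co-activator linked to CDC14, was not past the threshold (−0.20 ± 0.10).

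Of 15 genes that mark proliferating cells in mitosis, 13 were not past the threshold by brightest probe set. That left 13.3% past it against 23.7% of all genes, with a median of −0.05. Of those 13 genes, Top2a, Tpx2, Hmmr, Kif11, Foxm1, Mybl2, Cenpf and Nusap1 each had at least 1 dimmer probe set that fell past the threshold. No dimmer probe set of the list rose past it. With dim probe sets left out 6 of the 15 genes passed, 5 of them lower (10242 of 22530 probe sets in that fit). With a gene's probe sets averaged 5 passed, 4 of them lower (4852 of 18193 genes). Ube2c, a ubiquitin-conjugating enzyme of the APC, rose by 0.37 ± 0.08, and Ccnf (−0.39 ± 0.08) fell. Of 21 measured S phase and E2F target genes, 0 rose and 7 fell (33.3% lower against 11.5% of all genes, where 12.2% were higher, median −0.21). They included Tk1, a thymidine kinase (−0.67 ± 0.08), Mcm6, a subunit of the replicative helicase (−0.49 ± 0.07), and Rrm1, a subunit of ribonucleotide reductase (−0.48 ± 0.08). On all 3 the groups did not overlap, for example 9.40 and 9.49 against 8.79 and 8.77 for Tk1. Whether the S phase genes bear on the Cdc25a values was not tested.

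Other dual-specificity phosphatases, the wider class to which CDC14 and CDC25 are related, had 3 of 29 measured genes that rose and 2 that fell (17.2% against 23.7% of all genes, median 0.09). Dusp9, a phosphatase of MAP kinases, rose from 8.43 and 8.46 to 9.56 and 9.46, a log2 change of 1.07 ± 0.08. Dusp3 (0.38 ± 0.09) and Styx (0.31 ± 0.08) rose less, and a second bright Styx probe set did not make that call, nor did Styx pass after quantile normalization (limma adjusted p 0.0608). Ssh3 (−0.34 ± 0.09) and Dusp19 (−0.31 ± 0.08) fell, but with the arrays centred 0 genes of the list did (limma adjusted p 0.0623 and 0.0702). Cdkn3, a CDK-associated phosphatase, was not past the threshold (−0.12 ± 0.08). No gene in this list came near the log2 change of 2.96 read by Cdc14a 1436913_at.

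**Figure D4:**
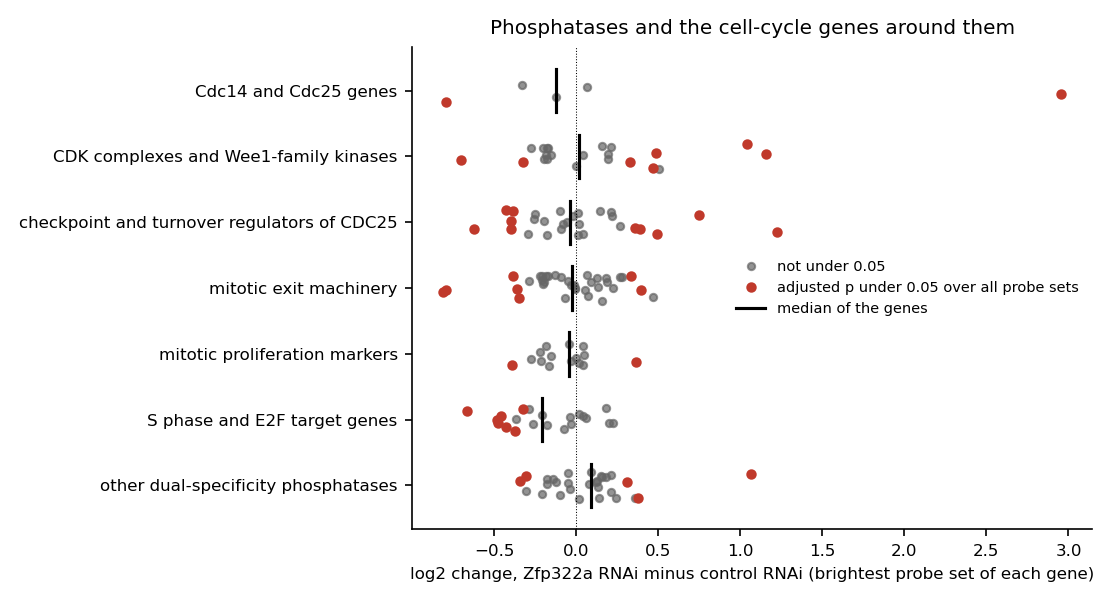
Log2 change of single genes (horizontal axis, Zfp322a RNAi minus control RNAi, brightest probe set of each gene) in the 5 phosphatase genes and in 6 lists of related genes (vertical axis). Red points have an adjusted p under 0.05 over all probe sets, grey points do not, and black bars are medians. Cdc14a at 2.96 lies outside the range of the lists, whose highest value is 1.23 (Gadd45a). The 5 genes were chosen above all by that Cdc14a value, so nothing is read from its place. Cdc14a 1443184_at and 1446493_at, not drawn here, gave −0.14 and 0.14.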

How the data were processed

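The authors deposited log2 expression values from Affymetrix mouse genome arrays, 1 value per probe set and array, made with RMA per the labels (background correction, quantile normalization and summary of probes, whose version is not given in the sources). The values had 2 decimals and ran from 2.62 to 14.61, and their number of arrays, 4, limits the precision. Probe sets were named from the platform annotation: 34945 of 45037 had 1 gene symbol, 932 several and 9160 none, and 34741 of the 34945 matched the RefSeq table. Each column was tied to its sample by its label. The groups were compared with lmFit and eBayes of limma 3.58.1 (R 4.3.3) over all probe sets, with a term for the group and no other (2 residual degrees of freedom before moderation) and two-sided p-values adjusted by Benjamini-Hochberg over all of them (threshold 0.05). A gene in a list stands for its brightest single-symbol probe set. The 5 genes and all lists were chosen with earlier results of these data known. All probe sets of the 5 genes are named, and in each list up to 3 genes with the lowest p in each direction past the threshold, plus direct opponents and substrates of the phosphatases. Motifs were searched on both strands of RefSeq promoter sequences, 250 bases before each start. The fit was tested on simulated data. Same-numbered arrays did not deviate together (correlation 0.056), so the replicate number was used as a block only as an alternative. Alternatives were leaving out each array, array centring, quantile normalization, a variance trend, a robust prior, leaving out dim (mean under 6.09) or cross-hybridizing probe sets, 1 value per gene, and a 1.5-fold rule.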

Additional observations from a re-analysis of the deposited data

How the results depend on the processing

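With 2 arrays a group, leaving out an array leaves a single array in its group and fewer residual degrees of freedom. Calls at the threshold were then lost over the whole series, so these fits say nothing of the calls of the members or lists in particular. In those fits the lone array of a group is assumed to vary like the other group. The replicate block also leaves fewer residual degrees of freedom. Fitted with it, 0 probe sets passed among the members, the lists or all probe sets (13586 with an unadjusted limma p under 0.05). The shared replicate numbers are only numbers. The changes themselves were steadier. Leaving out 1 array gave log2 changes of 2.88 to 3.03 for Cdc14a 1436913_at, −0.82 to −0.76 for Cdc14b 1437070_at, −0.97 to −0.62 for Cdc25a 1445995_at and −0.39 to −0.33 for Cdc25c 1422252_a_at. Of 44 such values for the 11 probe sets 1 turned sign, that of Cdc14a 1446493_at (−0.015 to 0.29 over the 4 fits, −0.015 without control RNAi replicate 1), and of 51 values under the other alternatives 0 did. With a variance trend 7 member probe sets passed, 6 of them lower. Over all 45037 probe sets 11620 passed in that fit, against 9040 in the main fit. With quantile normalization, or with dim probe sets left out, 5 member probe sets were lower. In these 2 fits 9412 of 45037 and 10242 of 22530 probe sets passed. By brightest probe set, 2 genes were lower with quantile normalization, a variance trend, dim or cross-hybridizing probe sets left out, or a fit of brightest probe sets alone. When a gene's probe sets were averaged first, 4 genes passed, 3 of them lower. Of all 18193 genes 5163 passed in the fit of brightest probe sets alone and 4852 after averaging. Of the 151 list genes 38 passed (16 higher and 22 lower), against 75 with a variance trend (35 and 40), 67 with dim probe sets left out (31 and 36) and 10 by the 1.5-fold rule with no test (5 and 5). Centring the arrays gave 19 higher and 17 lower. The variance trend and leaving out dim probe sets also raised the share that passed over all probe sets. The cause of these differences was not tested.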
